A study of Mus musculus with 8 samples.

Results

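The genes described here are the receptors of the ERBB family (Egfr, Erbb2, Erbb3 and Erbb4), a set of their ligands (Egf, Nrg1, Hbegf, Btc and Tgfa) and the receptor inhibitor Lrig1. They make up 10 of the 21883 protein-coding genes read from a RefSeq table of the mouse genome (GRCm38.p6), and were chosen by name, each with its gene body and the 50 kb on either side as its window. Small intestinal crypts of male C57BL/6J mice aged 9 weeks were profiled by CUT&Tag, which cuts and tags DNA where an antibody has bound chromatin, with antibodies to acetylated lysine 27 (H3K27ac) or lysine 9 (H3K9ac) of histone H3. Mice were Fed, or were fasted (Fast) for 24 h, and each feeding state was studied without tetracycline (-Tetra) or after 21 days of tetracycline (+Tetra), an antibiotic given here to ask, as the title of the study has it, whether the microbiome takes part in the response to fasting. The labels name no transgene or other genetic change in any of the 4 groups. Crypts were shaken free with EDTA and made into single cells with trypsin, and no sort of epithelial cells is described.

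Each mark had 1 sample per group and each sample had 2 peak lists, so that 8 lists per mark, 16 in all, were compared. The labels do not say whether lists 1 and 2 come from different mice, and p-values therefore measure the spread between lists, which may be technical. H3K27ac lists held from 32392 to 68545 peaks covering 33.1 to 64.2 Mb, and H3K9ac lists from 17249 to 99050 peaks covering 16.5 to 47.2 Mb. The number of reads behind a list is unknown. In H3K27ac the 4 Fed lists covered 37.7, 53.2, 33.1 and 56.0 Mb and the 4 Fast lists 53.1, 64.2, 51.0 and 48.2 Mb, and the feeding states overlapped. Peaks of 200 bp, the narrowest in the lists, made up 17.2%, 20.3% and 31.2% of the H3K9ac peaks in Fast -Tetra list 1, Fast +Tetra list 1 and Fast +Tetra list 2, and 11.8% of the H3K27ac peaks in Fast -Tetra list 1. The labelled tissue was checked at gene ends: all 10 epithelial markers carried H3K27ac in every list, all 5 endothelial markers were at 0 in every H3K27ac list, and 0 or 1 of 10 mesenchymal markers were marked in any of them. H3K9ac was less clear-cut: 8 to 10 epithelial markers were marked in a list, with 0 or 1 mesenchymal markers in a Fed and 0 to 4 in a Fast list, and Kdr was the one endothelial marker with a mark. Of 8 immune markers, 2 to 4 carried H3K27ac in a Fed list and 4 or 5 in a Fast list, with Cd4 and Csf1r among those at 0 throughout, and Ptprc, Cd3e, Cd8a, Cd79a and Itgam marked in at least 1 list. Of 6 markers of enteric neurons and glia, 0 to 2 carried H3K27ac in a Fed list and 0 or 1 in a Fast list. In H3K9ac 0 to 3 immune markers were marked in a Fed and 1 to 3 in a Fast list, and 0 to 2 and 1 to 3 markers of neurons and glia.

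ERBB receptors are tyrosine kinases of the cell surface that pair with one another when a ligand binds, and pass the signal through the RAS and MAP kinase relay to growth and survival genes. Egf, Tgfa, Btc and Hbegf bind Egfr, and Btc and Hbegf bind Erbb4 as well. Nrg1 binds Erbb3 and Erbb4, while Erbb2 has no known ligand and acts as a partner of the others. In the intestinal crypt EGF signalling sustains proliferation of stem and progenitor cells, and Lrig1, a transmembrane protein that lowers the level of ERBB receptors, is a marker of crypt stem and progenitor cells. Acetylation of H3 at lysines 27 and 9 is found at active promoters, and that at lysine 27 also at active enhancers.

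The promoters below are those on which the comparison of start sites turns: Lrig1, Tgfa and Egfr, whose starts carried acetylation, the pair of Egf starts, of which the internal one was marked, and Erbb4, whose start was not. Each is the RefSeq stretch (GRCm38.p6) of 300 bases, from 250 before the start to 50 after it, printed 5′ to 3′ on the strand of the gene. Capitals mark GC boxes, the letters GGGCGG or their reverse complement.
Lrig1, chr6:94700096-94700395, minus strand: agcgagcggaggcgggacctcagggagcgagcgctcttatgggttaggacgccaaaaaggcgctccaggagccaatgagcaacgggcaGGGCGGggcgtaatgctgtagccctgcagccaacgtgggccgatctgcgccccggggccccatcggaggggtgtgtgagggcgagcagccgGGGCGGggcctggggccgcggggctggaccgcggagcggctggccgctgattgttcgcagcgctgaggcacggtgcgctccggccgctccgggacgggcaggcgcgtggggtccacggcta
Tgfa, chr6:86194972-86195271, plus strand: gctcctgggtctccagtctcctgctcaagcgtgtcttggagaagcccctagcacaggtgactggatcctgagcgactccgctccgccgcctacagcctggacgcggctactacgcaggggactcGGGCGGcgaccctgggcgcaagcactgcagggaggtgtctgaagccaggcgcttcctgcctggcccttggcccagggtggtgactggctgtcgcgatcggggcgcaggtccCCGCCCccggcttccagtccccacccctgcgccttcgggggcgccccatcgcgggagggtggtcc
Egfr, chr11:16751953-16752252, plus strand: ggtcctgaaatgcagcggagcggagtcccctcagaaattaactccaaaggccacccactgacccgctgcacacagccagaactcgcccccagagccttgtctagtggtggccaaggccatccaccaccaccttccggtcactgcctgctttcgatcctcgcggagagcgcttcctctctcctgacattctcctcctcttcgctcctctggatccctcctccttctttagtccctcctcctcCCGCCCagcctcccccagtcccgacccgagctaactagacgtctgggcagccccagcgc
Egf, outer start, chr3:129755273-129755572, minus strand: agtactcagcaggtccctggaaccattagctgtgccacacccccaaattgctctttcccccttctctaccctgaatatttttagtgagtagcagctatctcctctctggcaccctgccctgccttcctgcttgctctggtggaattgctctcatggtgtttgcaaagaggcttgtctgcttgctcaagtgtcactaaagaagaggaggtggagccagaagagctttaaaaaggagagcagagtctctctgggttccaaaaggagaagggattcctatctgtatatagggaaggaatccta
Egf, internal start, chr3:129725037-129725336, minus strand: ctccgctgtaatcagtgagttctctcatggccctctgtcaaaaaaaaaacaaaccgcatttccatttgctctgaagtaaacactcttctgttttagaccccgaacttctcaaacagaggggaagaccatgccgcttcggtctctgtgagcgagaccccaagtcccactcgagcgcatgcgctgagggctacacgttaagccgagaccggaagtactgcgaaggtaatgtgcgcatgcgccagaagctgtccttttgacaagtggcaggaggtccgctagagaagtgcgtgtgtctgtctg
Erbb4, chr1:69108010-69108309, minus strand: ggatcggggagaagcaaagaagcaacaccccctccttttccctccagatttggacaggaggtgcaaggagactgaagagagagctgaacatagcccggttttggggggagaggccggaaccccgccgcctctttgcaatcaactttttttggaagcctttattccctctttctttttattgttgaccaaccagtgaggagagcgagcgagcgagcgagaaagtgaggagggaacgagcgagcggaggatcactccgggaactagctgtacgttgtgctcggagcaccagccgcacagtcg

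Entries were found for Egfr, Erbb2, Erbb4, Egf, Btc, Tgfa and Lrig1, and none for Erbb3, Nrg1 and Hbegf. The Lrig1 promoter held 73.0% G and C with 35 CpG and 2 GC boxes, and that of Tgfa 70.7% with 24 CpG and 2 GC boxes. The Egfr promoter held 62.3% G and C, 15 CpG and 1 GC box. Erbb2 (66.0%, 21 CpG), Btc (60.3%, 5 CpG), Erbb4 (55.3%, 17 CpG) and both Egf starts had no GC box in these windows. The outer Egf start held 49.0% G and C and 0 CpG, and the internal one 52.3% and 17 CpG. Over 32851 mouse promoters of the same length the median was 52.7% G and C with 7 CpG, and 35.7% held a GC box. The letters TATAAA (13.6% of promoters), TGANTCA (the AP-1 motif, 7.81%) and CTTTGAT (the TCF motif, 3.73%), searched on both strands with none overlapping a GC box in these windows, were in none of the promoters found for these 7 genes.

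Most of these genes carried acetylation at a gene end whatever the feeding state. Peaks up to 1 kb from a gene end counted as marking it. With H3K27ac, 7 of the 10 genes were marked in all 8 lists (Egfr, Erbb2, Erbb3, Hbegf, Btc, Tgfa and Lrig1), Egf was marked in 1 list, and Erbb4 and Nrg1 were marked in none. Over all protein-coding genes 33.6% were marked in all 8 H3K27ac lists and 39.4% in none. With H3K9ac, Erbb2, Erbb3, Hbegf, Tgfa and Lrig1 were marked in all 8 lists, Egfr in 7, Btc in 6, Egf in 2, and Erbb4 and Nrg1 again in none, against 21.1% of all genes in all 8 lists and 25.2% in none. The H3K9ac count of 5 was 1 (Erbb3) with the 17249 top-scoring peaks of each list, and 2 (Hbegf and Tgfa) when 0.5 of the peak had to lie in the window. The H3K27ac count of 7 was 5 under that overlap, without Erbb3 and Lrig1. The end marks of Egf were in Fast -Tetra list 2 for H3K27ac, and in Fed +Tetra list 2 and Fast +Tetra list 2 for H3K9ac.

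**Figure D1:**
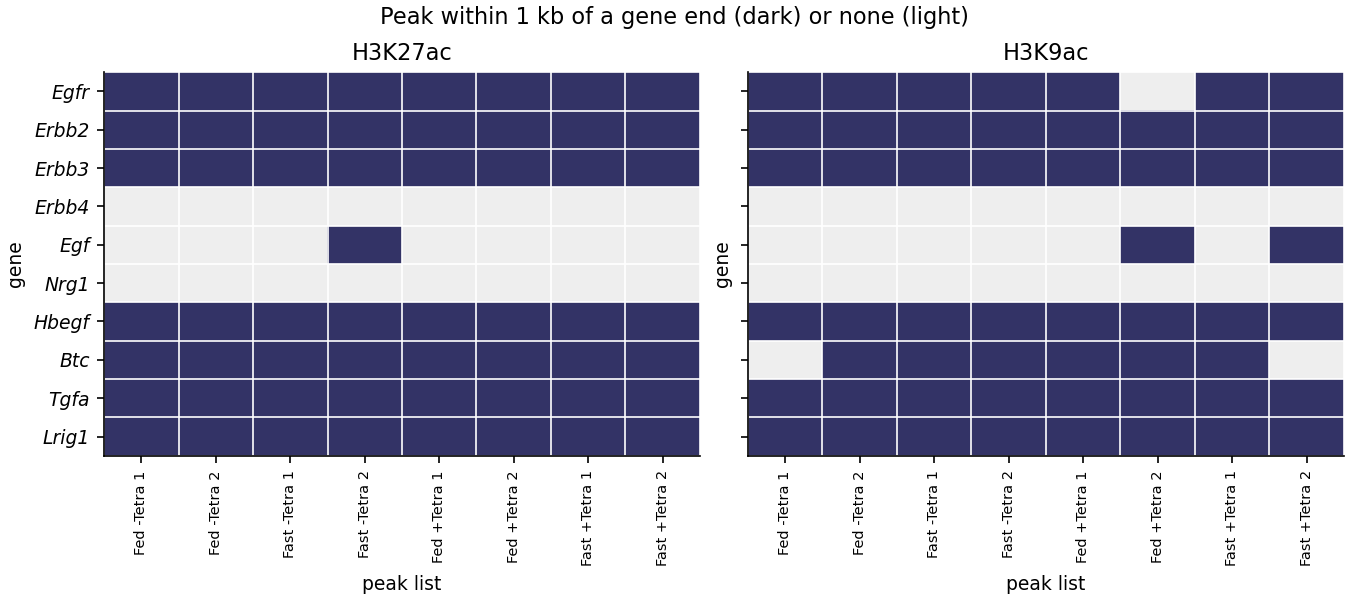
Each square is 1 gene (rows) in 1 peak list (columns), dark where a peak lay within 1 kb of either end of the gene, for H3K27ac (left) and H3K9ac (right). The rows of Erbb4 and Nrg1 are empty in all 16 lists, Egf has 1 dark square for H3K27ac and 2 for H3K9ac, and 7 rows are filled for H3K27ac.

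Where the strand was known, the marked end was the start. Egfr, Btc, Tgfa and Lrig1 had an H3K27ac peak at the start in 8 lists and at the far end in 0. Erbb2 had one at the start in 8 lists and at the far end in 7. The far-end region, chr11:98437795-98439468, lies past the end of Erbb2 and at an end of the neighbour Mien1, so that it cannot be assigned to one of them. Erbb3 had H3K27ac at both ends in 8 lists, and the region at its lower end, chr10:128564634-128567454, also reached the end of the neighbour Pa2g4, so that it cannot be assigned to one of them. At Hbegf the end at the higher coordinate was marked in 8 lists and the other in 0.

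Levels of acetylation were read as the length of a window covered by peaks, and are compared between genes per 100 kb of window. By median over the 8 H3K27ac lists Erbb2 stood first with 20919 bp per 100 kb, then Erbb3 with 18045, Lrig1 with 13188, Hbegf with 11386, Egfr with 5189, Btc with 1912, Tgfa with 1583 and Egf with 617, and Erbb4 and Nrg1 were at 0. Ranges over the lists overlapped for Erbb2 and Erbb3 (12814 to 24885 and 12956 to 20260), for Erbb3 and Lrig1 (5941 to 24612), for Lrig1 and Hbegf (8999 to 12822), and for Btc (990 to 3139) and Tgfa (803 to 3009). Those of Hbegf and Egfr (2682 to 7182) did not overlap, whereas Egfr overlapped Btc, and Tgfa overlapped Egf (367 to 1036). With H3K9ac the order was Erbb3 (11164 bp per 100 kb), Erbb2 (8771), Hbegf (7003), Lrig1 (3839), Egfr (1962), Tgfa (1454), Egf (947), Btc (817), Nrg1 (265) and Erbb4 (138), and the ranges of all neighbours in that order overlapped.

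**Figure D2:**
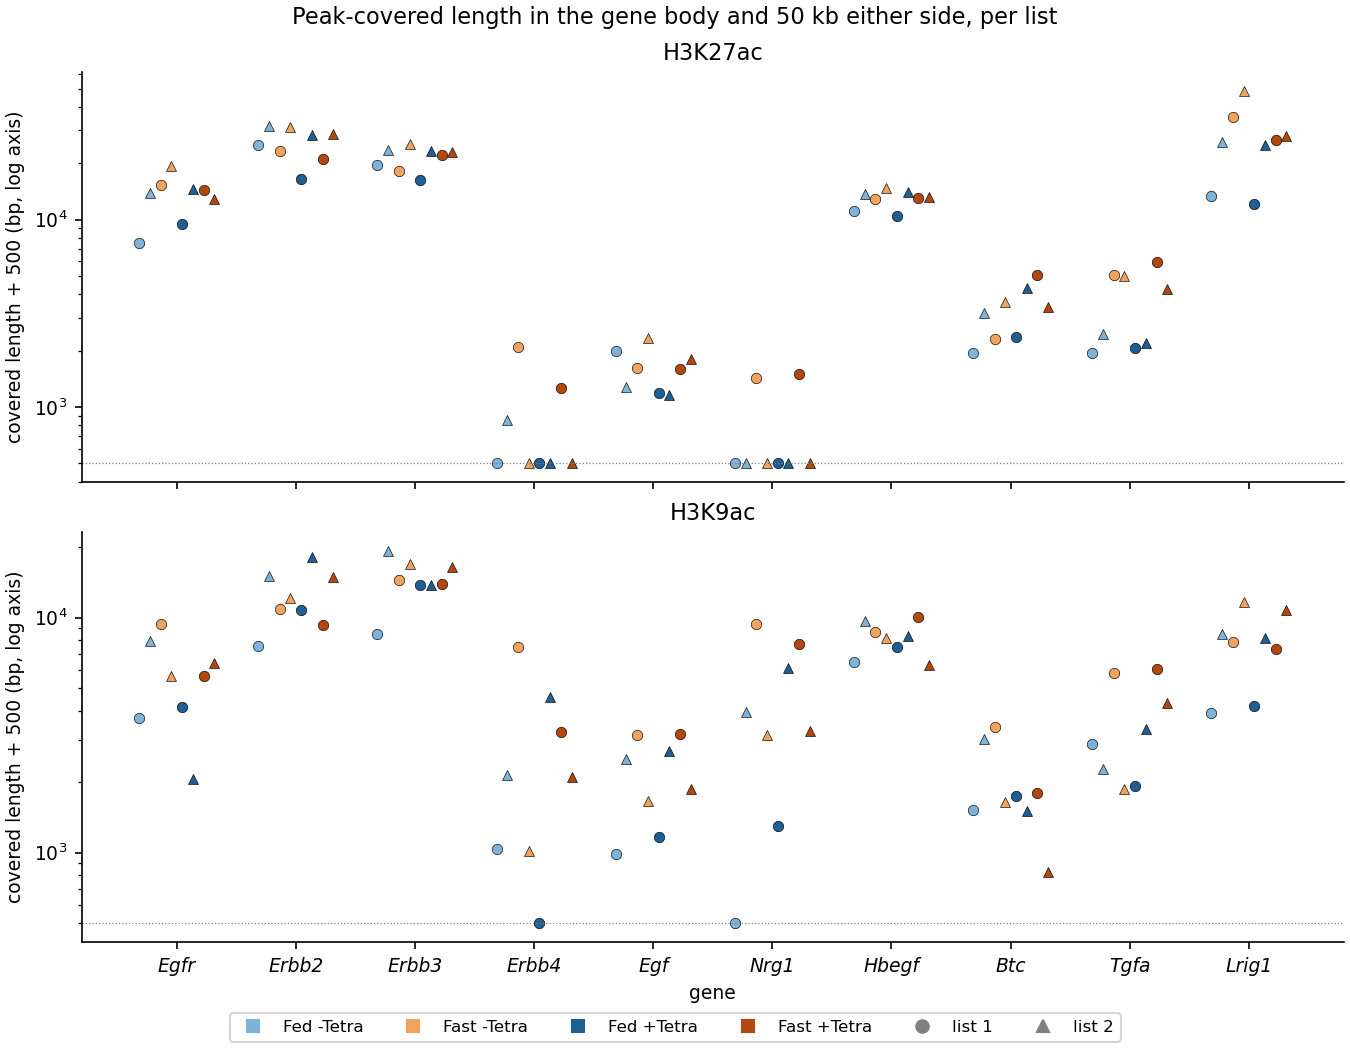
Covered length of each gene's window in each list, plotted as length + 500 bp on a log axis, for H3K27ac (top) and H3K9ac (bottom); colours give the group, circles list 1 and triangles list 2, and the dotted line is a window without a peak. The H3K27ac points of the 4 Fast lists lie above those of the 4 Fed lists for Tgfa and Lrig1, and overlap them for the other 8 genes.

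Fasting, tetracycline and their interaction were tested for each mark with limma across all genes with a peak in at least 2 of the 8 lists, on log2 of the covered length + 500 bp, a scale that understates differences of genes with little coverage. All 10 genes passed that filter in both marks, and none was called at an adjusted p under 0.05 in any of the 6 tests. In H3K27ac Nrg1 passed it through Fast -Tetra list 1 and Fast +Tetra list 1 alone, so its fasting difference there could only be positive. Erbb4 had H3K27ac peaks in the same lists and in Fed -Tetra list 2. For H3K27ac and fasting 51 of 18506 genes were called (0.276%), all with more coverage in Fast lists. For H3K27ac the share called was 0% for tetracycline and 0% for the interaction, and over 21102 genes tested for H3K9ac it was 0% in each of the 3 tests. The count of 51 varied with the lists used. It was 21 without Fed -Tetra list 1, 476 without Fed -Tetra list 2, 12 without Fast -Tetra list 1, 2 without Fed +Tetra list 1 and 2 without Fast +Tetra list 1. It varied as much with the processing: 1 with a pseudocount of 100 bp, 91 with 2000 bp, 148 with centred lists, 24 with top peaks, 4 with peaks at least 500 bp wide, 0 by the number of peaks and 3 with flanks of 20 kb. The H3K27ac tetracycline count of 0 was 12 with centred lists, 12 with the replicate block, 8 with a pseudocount of 2000 bp and 14 to 21 without Fed -Tetra list 2, Fed +Tetra list 2 or Fast +Tetra list 1. The interaction count was 3 without Fed -Tetra list 2, and the H3K9ac fasting count was 23 with centred lists, 6 without Fed +Tetra list 1 and 1 without Fast +Tetra list 1. At an unadjusted p under 0.05 by limma, 1948 genes passed for H3K27ac and fasting, 697 for tetracycline and 288 for the interaction, and 1103, 93 and 89 for H3K9ac. Of the 10 genes Tgfa and Lrig1 were among the 1948, and none was among the others.

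In H3K27ac the median fasting difference of the 10 genes was 0.45 on the log2 scale, beside 0.23 for all genes tested. The median gene was thus shifted towards the Fast lists, and the value of a single gene is read against that shift. The median of 0.45 includes Nrg1, which had no peak in any Fed list and so could only take a positive value. Fitted differences were 1.22 for Tgfa and 0.90 for Lrig1, and lay between 0.06 (Erbb2) and 0.77 (Nrg1) for the other 8 genes. After each list was centred on its median gene those of Erbb2, Erbb3 and Hbegf took the opposite sign (-0.21, -0.16 and -0.13). In H3K9ac the median was 0.58 beside 0.30 for all genes, from -0.13 (Btc) to 1.39 (Nrg1).

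**Figure D3:**
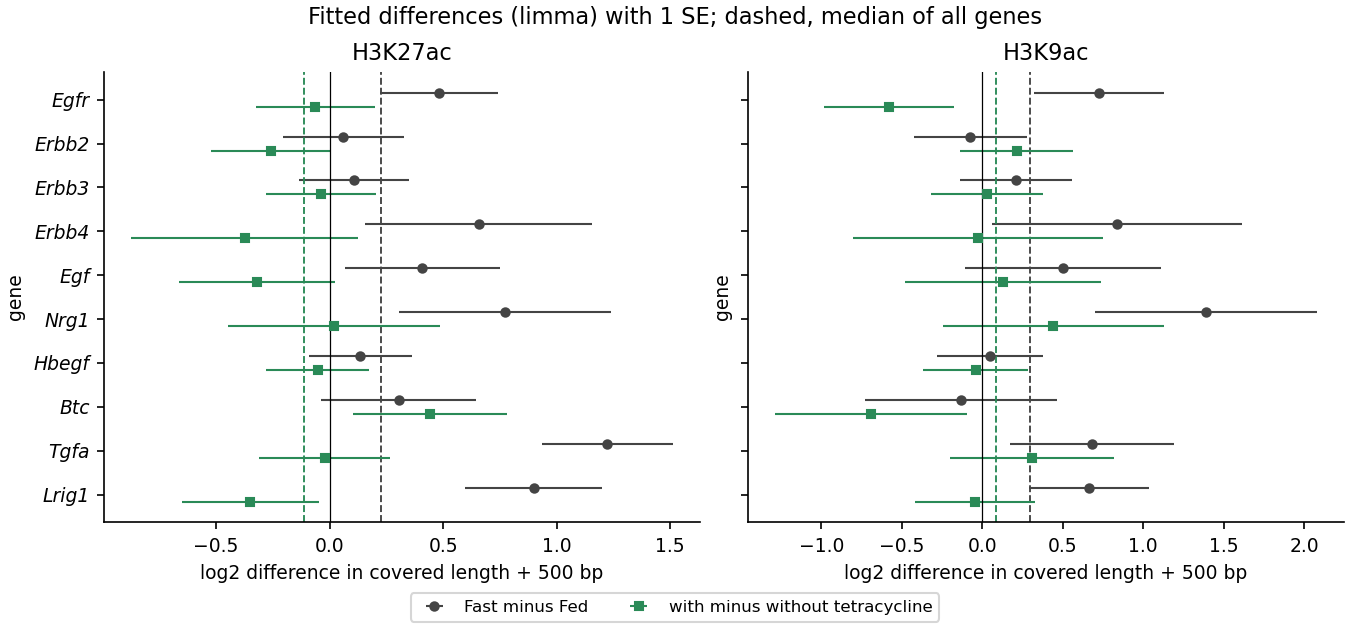
Fitted log2 differences in covered length + 500 bp with 1 SE from limma, for Fast minus Fed (dark circles) and with minus without tetracycline (green squares), for each gene (rows) and mark (panels); dashed lines are the medians of all genes tested. The H3K27ac fasting values of Tgfa (1.22) and Lrig1 (0.90) lie farthest to the right of the dashed line at 0.23; Erbb2, Erbb3 and Hbegf, near 0, change sign when lists are centred.

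Egfr, the receptor for Egf and Tgfa, carried H3K27ac at its start and along its body, with 26 regions in its window of which 6 were in all 8 lists (a region joins overlapping peaks of the lists of 1 mark). The named ones lie in the gene body 48.7 kb and 149.2 kb past the start, at chr11:16800078-16801809 and chr11:16899935-16902834, and carried H3K9ac in 7 and 5 lists. In H3K27ac its Fed lists without tetracycline covered 7020 and 13300 bp and its Fast lists 14771 and 18795 bp. With tetracycline the Fed lists covered 9018 and 14038 bp and the Fast lists 13859 and 12409 bp. The feeding states were thus apart without tetracycline and overlapped with it. The fitted difference was 0.75 ± 0.37 (SE) without and 0.21 ± 0.37 with tetracycline, and the interaction did not pass the test (-0.54 ± 0.53, limma adjusted p = 1). In H3K9ac Egfr covered 3232 and 7447 bp (Fed) and 8866 and 5124 bp (Fast) without tetracycline, and 3676 and 1558 bp (Fed) and 5143 and 5930 bp (Fast) with it. The H3K9ac lists overlapped without tetracycline and were apart with it, and the H3K9ac interaction did not pass the test either (0.625 ± 0.807). Each of these comparisons sets 2 lists against 2, and the share of all genes apart in this way was not computed. Fed +Tetra list 2, the lowest, was also the one H3K9ac list with no peak at the Egfr start.

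Erbb2, the partner receptor without a ligand of its own, had the densest H3K27ac of the 10 genes and lay between the 96.6th and 99.0th percentile of all genes per window length in every list. Its start region, chr11:98411596-98415070, was in all 8 lists of both marks. The other named region, chr11:98391984-98397123, lies 17.9 kb before the start inside Pgap3, and 36 of the 82 H3K27ac peaks in the flanks, summed over lists, lay at the ends of other genes such as Pgap3 and Grb7. Its H3K27ac windows covered 24596 and 31164 bp (Fed) and 22848 and 30721 bp (Fast) without tetracycline. With tetracycline they covered 16047 and 27798 bp (Fed) and 20610 and 28102 bp (Fast). List 2 was above list 1 in every group, and the feeding states overlapped.

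Erbb3, the receptor for Nrg1 that signals through its partners, differed little between lists of the feeding states. The region at its upper end, chr10:128586275-128591151, was in all 8 lists of both marks and its peaks had a median score at the 98.2th percentile of their H3K27ac lists, by the authors' score. Its H3K27ac windows covered 19155 and 22969 bp (Fed) and 17775 and 24740 bp (Fast) without tetracycline, and 15821 and 22629 bp (Fed) and 21588 and 22481 bp (Fast) with it. The fitted fasting difference was 0.11 ± 0.24 (SE), below the median of all genes. Of the 80 H3K27ac peaks in its flanks 36 lay at ends of other genes, among them Esyt1, Zc3h10, Rpl41 and Rps26.

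Erbb4, the other neuregulin receptor, is a gene of 1077 kb and was almost bare of H3K27ac. Only Fed -Tetra list 2 (355 bp), Fast -Tetra list 1 (1586 bp) and Fast +Tetra list 1 (765 bp) held any peak in its window, none at a gene end. All 8 of its H3K27ac regions and 49 of its 50 H3K9ac regions were in a single list. Its H3K9ac coverage was highest in Fast -Tetra list 1 (6995 bp in 20 peaks), a list with many peaks of 200 bp. The fitted H3K9ac fasting difference of Erbb4 was 0.84 ± 0.78 (SE, limma adjusted p = 0.852), and took the opposite sign, -0.48, with peaks at least 500 bp wide.

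Among the ligands, Tgfa, which binds Egfr, had the largest fitted H3K27ac difference between feeding states with the pseudocount of 500 bp. With 100 bp it was 1.40, and that of Nrg1, which had no peak in any Fed list, was 1.70. The H3K27ac windows of Tgfa covered 1451 and 1952 bp in the Fed lists without tetracycline and 1570 and 1684 bp in those with it. The Fast lists covered 4563 and 4525 bp without and 5438 and 3767 bp with tetracycline. Every Fast list lay above every Fed list. More cells carrying the mark and more of the mark per cell cannot be told apart in such bulk samples.

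The fitted fasting difference of Tgfa in H3K27ac was 1.22 ± 0.29 (SE, limma, unadjusted p = 0.00082, adjusted p = 0.102). Lists without tetracycline gave 1.21 ± 0.41 and those with it 1.24 ± 0.41. It was called without Fed -Tetra list 2 (1.31), a fit that left a single list in that group and in which calls over all genes rose as well. Over the alternatives that kept all lists its limma adjusted p ran from 0.0582 with the replicate block to 0.337 by the number of peaks. By rank among the genes of the same list, Tgfa lay at the 32.1st to 36.8th percentile in Fed lists and at the 42.6th to 49.0th in Fast lists. Such a rank need not remove differences in depth between lists, and the part of depth was not tested. With the 32392 top-scoring peaks of each list the fitted difference of Tgfa was 0.88 (limma adjusted p = 0.194). Lists of both feeding states had the same peak at the start, chr6:86194544-86196278, 1451 to 1684 bp wide in Fed lists and 1412 to 1718 bp in Fast lists. The gene body had 1190 to 1598 bp covered in Fed and 2641 to 3947 bp in Fast lists, and the flanks held 0 peaks in each Fed list and 1 to 3 in each Fast list. A region 38.7 kb past the start, chr6:86232857-86234672, was present in all 4 Fast lists and in Fed -Tetra list 2. A second one at 24.6 kb, chr6:86219185-86220100, named after its values were seen, was present in 3 Fast lists and no Fed list.

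Of the 12 H3K27ac regions of Tgfa, 11 were in more Fast than Fed lists and none in more Fed lists, but 8 were in a single list. Such counts leaned to Fast lists at sparsely marked genes too: 7 against 1 at Btc and at Erbb4, and 6 against 0 at Nrg1. They were 17 against 2 at Egfr and 5 against 1 at Egf. At Erbb2 they were 5 against 8, at Erbb3 7 against 6 and at Hbegf 3 against 3. The share over all H3K27ac regions was not computed. The count of immune markers with H3K27ac was also higher in Fast lists, 2 to 4 in Fed and 4 or 5 in Fast lists, and its part in the Tgfa difference was not tested. In H3K9ac Tgfa covered 2397 and 1766 bp (Fed) and 5336 and 1357 bp (Fast) without tetracycline, and 1423 and 2858 bp (Fed) and 5533 and 3829 bp (Fast) with it. Fast -Tetra list 2 was the lowest of the 8 H3K9ac lists, so the feeding states overlapped. The fitted H3K9ac difference of 0.68 ± 0.51 (SE, limma adjusted p = 0.846) took the opposite sign, -0.78, when every list was cut to its 17249 peaks of highest score.

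**Figure D4:**
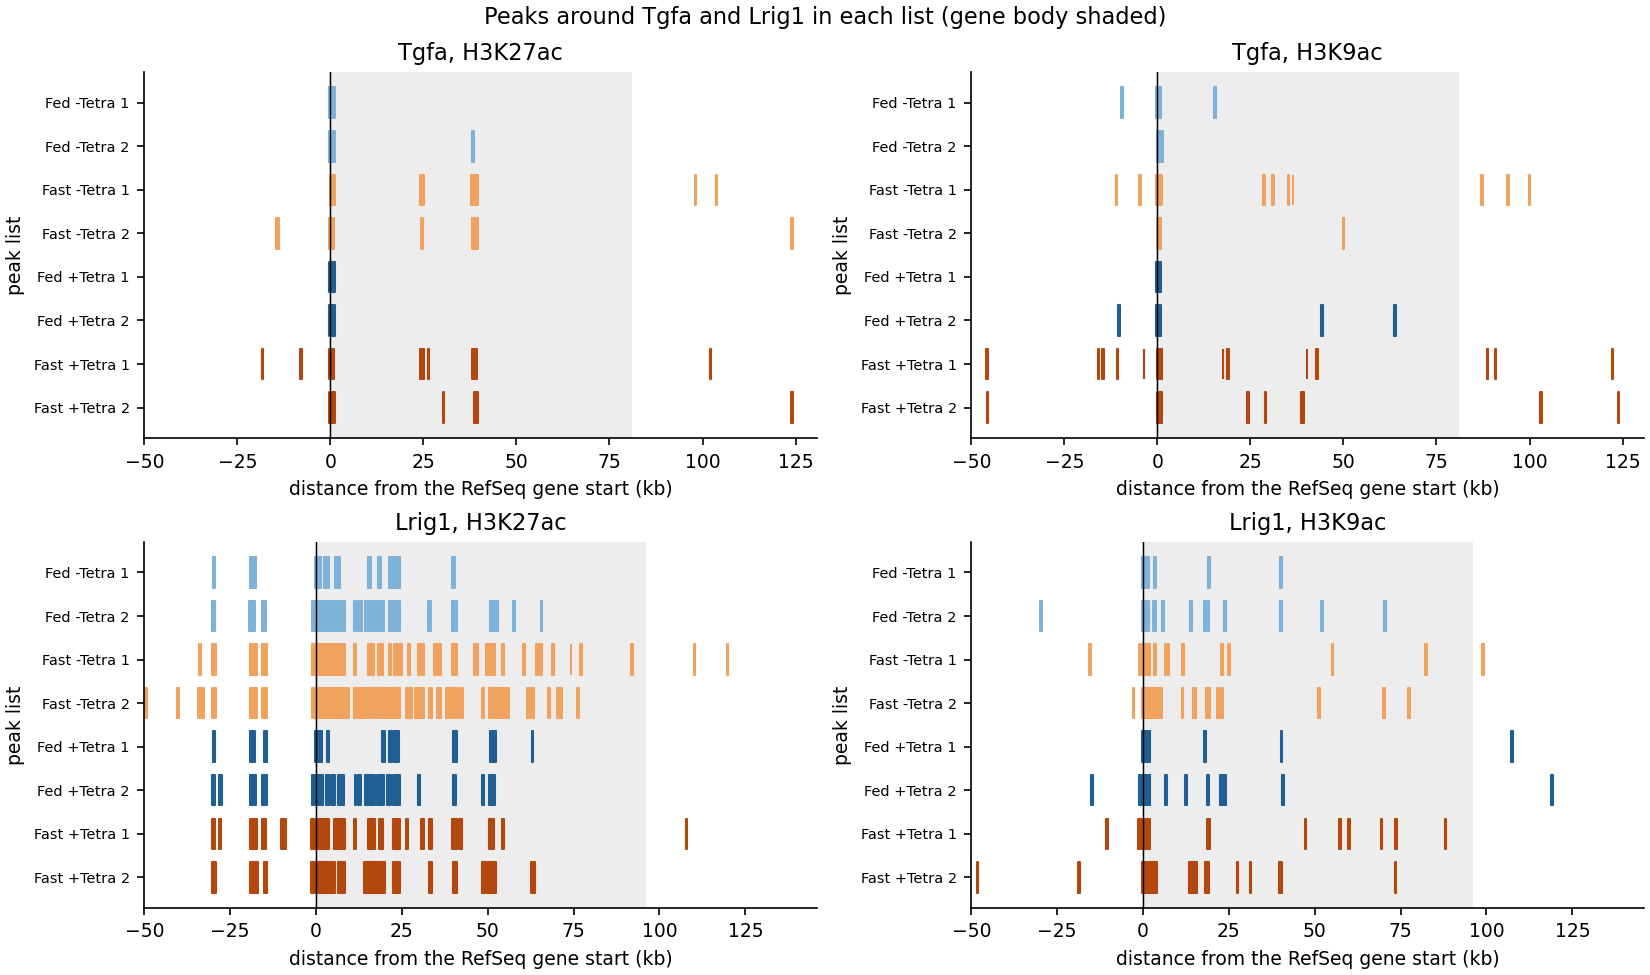
Peaks of each list (rows, coloured by group) around Tgfa (top) and Lrig1 (bottom) for H3K27ac (left) and H3K9ac (right), by distance from the RefSeq start in kb, with the gene body shaded. At Tgfa all lists share the peak at 0 and H3K27ac peaks at 38.7 kb are in 4 Fast lists and 1 Fed list; at Lrig1 H3K27ac peaks fill more of the body in Fast lists.

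Hbegf, a ligand made as a membrane-bound precursor, was densely marked, from the 85.2nd to the 90.8th percentile of genes in H3K27ac. Its H3K27ac windows covered 10657 and 13266 bp (Fed) and 12407 and 14217 bp (Fast) without tetracycline, and 9978 and 13474 bp (Fed) and 12511 and 12739 bp (Fast) with it. The region at its upper end, chr18:36513468-36518032, was in all 8 lists of both marks. A flanking H3K9ac region of 884 bp, chr18:36521930-36522813, was present in all 4 Fed lists and in no Fast list, while the same place had H3K27ac in all 8 lists. It was the only one of the 378 H3K9ac regions of the 10 genes that split the lists by feeding.

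Over all 295928 H3K9ac regions 0.0145% were in all Fed and no Fast lists and 0.0189% in all Fast and no Fed lists. Over all 112301 H3K27ac regions the shares were 0.0837% and 0.4%, and none of the 174 regions of the 10 genes was of either kind. Regions of these genes were in all 8 H3K27ac lists in 35 of 174 cases (20.1%, against 14.6% of all regions) and in all 8 H3K9ac lists in 7 of 378 (1.85% against 1.52%). Single-list regions made up 49.4% and 81.5%, against 53.1% and 84.4% of all regions.

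Btc, the ligand betacellulin, had its H3K27ac start region, chr5:91402055-91403415, in all 8 lists and H3K9ac there in 6. Its H3K27ac windows covered 1443 and 2667 bp (Fed) and 1807 and 3151 bp (Fast) without tetracycline. With tetracycline they covered 1852 and 3833 bp (Fed) and 4575 and 2906 bp (Fast). The feeding states overlapped in each tetracycline state. A flanking region, chr5:91333951-91335653, 68.2 kb past the start and beyond the end of the gene, carried H3K27ac in 7 lists and H3K9ac in 1.

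Egf itself was sparsely marked, and a peak within 1 kb of its outer start was present in 1 H3K27ac and 2 H3K9ac lists. The only region in all 8 H3K27ac lists, chr3:129724633-129725812, lies in the gene body 30.1 kb from the outer start and holds the internal RefSeq start whose promoter is printed above. That promoter stretch was overlapped by H3K27ac peaks in 8 lists and by H3K9ac peaks in 5, and the outer stretch by 0 and 1. At the internal start the H3K27ac peaks were 653 to 1087 bp wide. Egf windows covered 1487 and 778 bp (Fed) and 1106 and 1841 bp (Fast) without tetracycline, and 685 and 653 bp (Fed) and 1087 and 1309 bp (Fast) with it. Fed and Fast lists overlapped without tetracycline and were apart with it, by a fitted 0.54 ± 0.48 (SE, limma adjusted p = 1). That separation sets 2 lists against 2, the share of all genes apart in this way was not computed, and the interaction did not pass the test (0.253 ± 0.685).

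Nrg1, the neuregulin ligand of Erbb3 and Erbb4 and a gene of 1084 kb, had H3K27ac peaks in 2 lists only, Fast -Tetra list 1 (921 bp) and Fast +Tetra list 1 (1001 bp). Its H3K9ac windows covered 0 and 3477 bp (Fed) and 8888 and 2662 bp (Fast) without tetracycline. With tetracycline they covered 804 and 5623 bp (Fed) and 7200 and 2780 bp (Fast). The feeding states overlapped, and both Fast lists 1, which were the highest, had 17.2% and 20.3% of peaks at 200 bp. Fast +Tetra list 2 had the largest share of such peaks, 31.2%, and covered 2780 bp. The part of these narrow peaks was not tested. Of the 91 H3K9ac regions of Nrg1 88 were in a single list. The fitted fasting difference, the largest of the 10 genes in H3K9ac, was 1.39 ± 0.69 (SE, limma adjusted p = 0.844). It was 0.60 with peaks at least 500 bp wide and 0.52 with the 17249 top-scoring peaks of each list.

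Lrig1, the receptor inhibitor and stem cell marker, had the most H3K27ac peaks of the 10 genes, 178 over the 8 lists, and 46 regions of which 33 lay in the body. Its H3K27ac windows covered 12841 and 25458 bp in the Fed lists without tetracycline and 11631 and 24456 bp in those with it. The Fast lists covered 34606 and 48182 bp without and 26176 and 27314 bp with tetracycline. Every Fast list lay above every Fed list, by a narrow margin between Fast +Tetra list 1 (26176 bp) and Fed -Tetra list 2 (25458 bp) and by more among lists 1 and among lists 2. Within lists, Lrig1 lay at the 79.3rd to 89.2nd percentile of genes in Fed and at the 93.0th to 98.0th in Fast lists.

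The fitted fasting difference of Lrig1 in H3K27ac was 0.90 ± 0.30 (SE, limma, unadjusted p = 0.0099, adjusted p = 0.26). Lists without tetracycline gave 1.15 ± 0.43 and those with it 0.65 ± 0.43, and the difference between these did not pass the test (-0.51 ± 0.60, adjusted p = 1). With the list number as a replicate block, since same-numbered H3K27ac lists deviated together, Lrig1 was called (0.90, limma adjusted p = 0.0228) among 253 genes in all, and Tgfa was not (1.22, adjusted p = 0.0582). Over all alternatives the adjusted p of Lrig1 ran from 0.0228 to 0.901, the highest without Fed -Tetra list 1. The counts of immune markers given above moved with it too, and their part was not tested.

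H3K27ac regions of Lrig1 present in all 8 lists lay from 29.8 kb before the start to 40.3 kb past it. The start region, chr6:94691703-94701737, was in all 8 lists of both marks and spanned 10035 bp. The widest H3K27ac peak at the start was 1789, 2248, 1950 and 2330 bp in the 4 Fed lists. In Fast lists it was 4574 and 8967 bp without and 1388 and 7007 bp with tetracycline. In Fast +Tetra list 1 the start was covered by a pair of almost adjoining peaks of 753 and 1388 bp. The other 3 Fast lists had the widest peaks. The other named region, chr6:94717318-94719718, lies 18.2 kb before the start with H3K27ac in 8 lists and H3K9ac in 1. Of the 46 regions 36 were in more Fast than Fed lists and 2 in more Fed lists, and 5 were in at least 2 Fast lists and no Fed list. A single list held 24 of the 46, and the share over all H3K27ac regions was not computed.

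In H3K9ac Lrig1 covered 3431 and 8025 bp (Fed) and 7367 and 11149 bp (Fast) without tetracycline. With tetracycline it covered 3710 and 7662 bp (Fed) and 6854 and 10234 bp (Fast). List 2 was above list 1 in every group, and within lists 1 and within lists 2 the Fast values were above the Fed values, but over all lists the states overlapped. The fitted difference was 0.66 ± 0.37 (SE, limma adjusted p = 0.844) and took the opposite sign, -0.11, with 17249 top-scoring peaks per list. A body region 18.6 kb past the start, chr6:94680864-94682520, carried H3K9ac in 7 lists and H3K27ac in 8.

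Counted over the set, H3K27ac coverage was higher in all 4 Fast than in all 4 Fed lists for 2 of the 10 genes, Tgfa and Lrig1, beside 6.26% of all genes tested. The reverse held for 0 of 10, beside 0.151% of all genes. With the 32392 top-scoring peaks of each H3K27ac list Tgfa stayed apart by feeding and Lrig1 did not, and with centred lists 3 genes were apart, Egfr in addition to these. The share of all genes apart under those settings was not computed. In H3K9ac none of the 10 separated in either direction, beside 3.61% of all genes higher in Fast and 0.261% higher in Fed lists.

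Tetracycline separated none of the 10 genes. In H3K27ac 0 of 10 were higher in all 4 lists with tetracycline, beside 0.151% of all genes, and 0 of 10 were higher in all 4 without it, beside 1.44%. In H3K9ac the counts were 0 of 10 and 0 of 10, beside 0.246% and 0.147%. The median fitted tetracycline difference was -0.06 in H3K27ac, beside -0.11 for all genes, with values from -0.37 (Erbb4) to 0.44 (Btc). In H3K9ac it was 0.00 beside 0.09, with values from -0.69 (Btc) to 0.44 (Nrg1).

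The rest of the pathway was read from a list of 37 genes: 6 further ligands, 4 genes of ligand shedding, 9 inhibitors, 13 adaptors and relay kinases and 5 target genes. All 37 were tested and none was called for fasting, tetracycline or the interaction in either mark. In H3K27ac their median fasting difference was 0.21, beside 0.23 for all genes, and 0.18 beside 0.30 in H3K9ac. By group the H3K27ac medians were 0.35 for ligands, 0.08 for shedding, 0.23 for inhibitors, 0.15 for the relay and 0.25 for targets.

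In H3K27ac 4 of the 37 pathway genes had all Fast lists above all Fed lists, beside 6.26% of all genes tested. The reverse held for 0 of 37, beside 0.151% of all genes. Whether these counts differ from the shares of all genes was not tested. Myc, Cblb and Rhbdf1 were among the 4. Myc, a growth regulator, covered 2404 to 4633 bp in Fed and 6034 to 8478 bp in Fast lists (fitted 0.88 ± 0.27, limma adjusted p = 0.207). Cblb, a ubiquitin ligase that acts on activated receptors, covered 5940 to 12324 bp and 12866 to 21473 bp, and Rhbdf1, an inactive rhomboid that takes part in ligand shedding, 4037 to 5784 bp and 6343 to 8208 bp. In H3K9ac Map2k2, the kinase MEK2, had all Fed lists (20292 to 32183 bp) above all Fast lists (12904 to 19063 bp). It was the only 1 of the 37 to do so, beside 0.261% of all genes. The reverse held in H3K9ac for 0 of 37, beside 3.61%. In H3K27ac Adam10, a protease that sheds ligands, covered 5937 to 8143 bp in the lists without and 3471 to 5574 bp in those with tetracycline. It was the only 1 of the 37 with all lists without tetracycline above all lists with it, beside 1.44% of all genes. The reverse held for 0 of 37, beside 0.151%. At gene ends 12 of 13 relay genes and 0 of 6 further ligands carried H3K27ac in all 8 lists, beside 33.6% of all genes. Of these ligands 2 were marked in no H3K27ac list, and the others in 1 to 7 lists.

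Genes on other chromosomes whose rank within each list followed that of a member most closely were named by Spearman's rho over the 16 lists of both marks together. For Lrig1 they were Clca3b (0.965) and Rap1gap2 (0.95), for Egfr Ahi1 (0.938) and Fggy (0.935), and for Erbb3 Ebpl (0.826) and Pla1a (0.824). Both genes of a pair were read from the same lists and so share their total coverage. A difference in rank between the marks enters rho along with any between groups, and these were not separated. Lrig1 lay at the 79.3rd to 98.0th percentile in H3K27ac and at the 55.7th to 86.2nd in H3K9ac.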

How the data were processed

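The authors deposited 16 peak lists, 2 per sample, each with the position of every peak and a score; the deposited score has no stated unit and was used only to rank peaks within a list. Every score was at least 50. Per the submitters' processing notes reads were handled with FastQC, Bowtie and SAMtools on mm10, with no versions given in the sources used here. Peak names begin with MACS, and the names of the deposited lists describe the data as downsampled. The peak caller's version and cutoff and the use of IgG libraries are not given in the sources used here.

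Peaks on chromosomes 1 to 19, X and Y were placed on 21883 protein-coding genes of the RefSeq table (GRCm38.p6), each with flanks of 50 kb. Covered length was compared with limma 3.58.1 in R 4.3.3 (moderated with a trend, 4 group means, Benjamini-Hochberg adjustment over all genes with a peak in at least 2 of 8 lists) and tested on simulated data. In these, 200 genes were given a fasting difference of 2 on the log2 scale. Of them 73.5% were called for H3K27ac and 28.5% for H3K9ac, with 2 and 1 false calls. The planted difference was larger than any fasting difference of the 10 genes in the main fits, at most 1.22 in H3K27ac and 1.39 in H3K9ac. Noise was drawn for each gene separately, without the deviations that lists share. Smaller differences were not simulated. A gene that was not called may thus still differ, above all in H3K9ac. Overlaps needed at least 1 bp. Named were all 10 genes, up to 2 regions per gene and mark found in the most lists (ties by score percentile), regions that split the lists by feeding, pathway genes called or not overlapping, and the 2 genes of most like pattern for Egfr, Erbb3 and Lrig1. Some genes of these lists are not reported here by name. The genes and lists were chosen with earlier results of these data known. List numbers come from the names of the deposited lists: deviations from group means correlated between same-numbered lists at 0.126 to 0.348 in all 6 pairs of groups for H3K27ac, and at -0.069 to 0.252 for H3K9ac. The main fits did not pair lists in either mark. Pairing by list number, the replicate block, was run as an alternative for both marks. Alternatives changed the pseudocount, filter, scaling, peak set, flank, gene-end window, replicate block and lists used. Overlaps were counted in Python 3.11.15 with pandas 2.3.3 and numpy 2.4.6, rank correlations came from scipy 1.17.1, and figures were drawn with matplotlib 3.10.9.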

Additional observations from a re-analysis of the deposited data

How the results depend on the processing

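The count of genes called stayed at 0 of 10 in all alternatives run, except for H3K27ac and fasting. There it was 1 with the replicate block (Lrig1), where calls over all genes rose from 51 to 253. Tgfa was called without Fed -Tetra list 2, a fit that left a single list in that group and in which calls over all genes rose as well. The replicate block changed no other call among the 10 genes. Genes separated by feeding numbered 1 in H3K27ac (Tgfa) and 1 in H3K9ac (Hbegf, higher in Fed lists) with equal numbers of top peaks, and 3 in H3K27ac with centred lists (Egfr, Tgfa and Lrig1). The shares of all genes apart under these settings were not computed, so these counts have no background beside them. With top peaks 1 gene was marked at an end in all 8 H3K9ac lists (Erbb3), and 2 were (Hbegf and Tgfa) when 0.5 of the peak had to overlap, which left 5 of 7 in H3K27ac. Some fitted fasting differences, none of them called, took the opposite sign. In H3K27ac centring gave -0.21 for Erbb2, -0.16 for Erbb3 and -0.13 for Hbegf, and the number of peaks gave -0.21, -0.065 and -0.04. In H3K9ac centring gave -0.12 for Erbb3 and -0.28 for Hbegf. Top peaks gave -0.32 for Erbb3, -0.75 for Hbegf, -0.78 for Tgfa and -0.11 for Lrig1. Peaks at least 500 bp wide gave -0.48 for Erbb4 and -0.14 for Hbegf. For Btc the number of peaks gave 0.65 and flanks of 20 kb 0.14. Leaving out each list in turn gave ranges for Erbb2 from -0.13 to 0.25 and Erbb3 from -0.019 to 0.23 in H3K27ac, and in H3K9ac Erbb2 from -0.32 to 0.17, Erbb3 from -0.082 to 0.51, Hbegf from -0.12 to 0.22 and Btc from -0.41 to 0.15. The cause was not tested. Of 452 comparisons with an alternative 413 kept direction and call, or a count within 1.5 times that reported. Many of these were counts of 0 that stayed at 0 or uncalled differences that stayed uncalled, so this share does not measure how robust the results are. The unknown depth and the 2 lists per group limit all values: windows hold peaks of neighbouring genes, and a peak absent from a list may lie below its cutoff.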
